A study of Mus musculus with 7 samples.

Results

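The unfolded protein response and the integrated stress response were described in the retina through 10 genes: *Atf4*, *Ddit3* and *Xbp1*, which encode transcription factors, *Trib3*, *Chac1*, *Asns* and *Ppp1r15a*, which are targets of these factors, and *Hspa5*, *Hsp90b1* and *Herpud1*, which act in the endoplasmic reticulum (ER). The members were picked by name as genes of the ATF4, CHOP and XBP1 pathways and ER chaperones, and each symbol was matched to its Ensembl gene through a GRCm38 annotation. All 10 were among the 52550 genes of the count table, and all 10 were among the 20128 genes that passed the filter on low counts. WT C57BL/6J mice were compared with homozygous SCA7140Q/140Q knock-in mice, a model of spinocerebellar ataxia type 7 on the same background, at 12.5 weeks of age. The knock-in allele holds an expanded CAG repeat in exon 1 of *Atxn7* and is driven by the physiological *Atxn7* promoter, so mutant ataxin-7 is made wherever *Atxn7* is active. Each library was made from both retinas of 1 mouse, with 4 WT and 3 SCA7 mice, and the labels do not give the sex of the mice.

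The unfolded protein response starts when unfolded proteins collect in the ER, where they are sensed by the membrane proteins IRE1, PERK and ATF6. IRE1 splices the *Xbp1* mRNA into the form that encodes an active factor, ATF6 is cut to release another, and PERK phosphorylates eIF2α, which lowers translation in general while ATF4 protein is still made. GCN2, PKR and HRI phosphorylate the same site in response to amino acid shortage, double-stranded RNA or heme shortage, and the response to all of these kinases is called the integrated stress response. Photoreceptors make and fold large amounts of rhodopsin in the ER, and these pathways are much studied in inherited retinal degeneration. Gene counts measure mRNA. They show neither the splicing of *Xbp1* nor the amount of ATF4 protein.

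The promoters of several members hold the sequences by which these pathways are read. ATF4 with a C/EBP partner binds the C/EBP-ATF response element (CARE, searched as TGATGNAA on both strands, which reads TTNCATCA on the other strand), and ATF6 with NF-Y binds the ER stress response element (ERSE, CCAAT and CCACG with 9 bases between them). Promoter windows of 300 bases, from 250 bases before to 50 bases after the RefSeq start of the gene, were taken from RefSeq (GRCm38.p6), whose starts can lie inside the gene spans given below, and all 10 members matched by symbol. Of 32851 windows, 3.97% held a CARE, 0.119% an ERSE and 0.0365% the related ERSE-II (ATTGG and CCACG with 1 base between them). A CARE was found in 4 members, *Trib3*, *Asns*, *Chac1* and *Herpud1*, an ERSE in *Hspa5* and, at 2 places, in *Hsp90b1*, and an ERSE-II in *Herpud1*. The unfolded protein response element (searched as TGACGTGG, found in 0.676% of windows) was in none of them. The windows of *Atf4*, *Ddit3*, *Xbp1* and *Ppp1r15a* held none of the 4 motifs. Stretches of 30 bases are shown 5′ to 3′ on the strand of the gene, with the motif in capitals, to show which element stands at which member; such a match is a description of the letters and no proof of binding.
Trib3 (chr2:152344028-152344057, minus strand, CARE on the opposite strand): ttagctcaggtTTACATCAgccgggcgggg
Chac1 (chr2:119351038-119351067, plus strand, CARE on the opposite strand): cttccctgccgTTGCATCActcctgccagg
Asns (chr6:7693214-7693243, minus strand, CARE on the same strand): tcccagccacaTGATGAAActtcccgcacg
Herpud1 (chr8:94386306-94386335, plus strand, CARE on the opposite strand): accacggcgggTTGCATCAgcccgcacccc
Herpud1 (chr8:94386368-94386397, plus strand, ERSE-II on the same strand): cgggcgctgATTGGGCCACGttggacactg
Hspa5 (chr2:34772020-34772049, plus strand, ERSE on the same strand): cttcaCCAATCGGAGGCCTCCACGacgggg
Hsp90b1 (chr10:86705632-86705661, minus strand, ERSE on the same strand): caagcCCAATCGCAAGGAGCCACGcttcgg
Hsp90b1 (chr10:86705527-86705556, minus strand, ERSE on the opposite strand): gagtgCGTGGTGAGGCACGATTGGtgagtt

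The 7 libraries held between 56497675 and 96635832 counts, so that 1 count was worth 0.00972 to 0.0187 CPM (counts scaled to a common library size, with TMM factors). Retinal identity was checked with marker lists. All 8 rod markers and all 6 cone markers were present in WT and downregulated in SCA7, the summed rod level going from 59820–61962 CPM in WT to 15725–20418 CPM in SCA7 and the cone level from 1282–1499 to 178–199 CPM. All 6 microglia markers and 4 of 5 reactive glia markers were upregulated, with summed levels of 32.1–38.1 CPM against 67.2–74.6 CPM and of 30.0–44.7 CPM against 179–196 CPM. None of the 5 Müller glia markers passed the fold limits (3326–4186 against 3173–3323 CPM summed, most of it *Glul*); at an adjusted p under 0.05 *Aqp4* (log2 fold change 0.31) and *Kcnj10* (0.33) were higher and *Glul* (-0.36) was lower. Of the retinal pigment epithelium markers, 2 of 5 were downregulated (60.4–119 against 15.3–37.5 CPM summed), namely *Rpe65* and *Ttr*, which made up most of that level. *Best1* (log2 fold change 0.08), *Tyr* (0.14) and *Pmel* (-0.90) were not called. Rod and glial RNA thus moved with the genotype beside every result below, and their part in the members' differences was not tested. In bulk retina, fewer cells of a type and less RNA per cell cannot be told apart.

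In SCA7 retina *Atf4* and its targets *Trib3* and *Chac1* were downregulated, and no member was upregulated. *Trib3*, a pseudokinase that restrains ATF4 and AKT, fell by 46.5%, *Chac1*, an enzyme that degrades glutathione, fell by 44.8%, and *Atf4* fell by 30.6%, close to the fold limit, which it missed by DESeq2. The ER chaperones *Hspa5* and *Hsp90b1*, the CHOP gene *Ddit3* and *Xbp1* did not pass the test in either direction.

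A gene was called upregulated at an adjusted p under 0.05 and a fold (SCA7/WT) above 1.3, and downregulated at an adjusted p under 0.05 and a fold under 0.7. Of the 10 members 3 were downregulated, against 7.91% of all genes tested, and 0 were upregulated, against 7.47%. The 0 holds for edgeR's quasi-likelihood test with Benjamini-Hochberg adjustment, for DESeq2, and for the members higher in SCA7 at an unadjusted p under 0.05. DESeq2 called 2 members downregulated. The median log2 fold change of the members was -0.12, with a range from -0.90 to 0.13, beside a median of -0.02 and quartiles of -0.26 and 0.17 over all genes. In 3 members every SCA7 library was below every WT library, which held for 18.3% of all genes tested, and in 0 members was every SCA7 library above every WT library, which held for 19.3%.

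**Figure D1:**
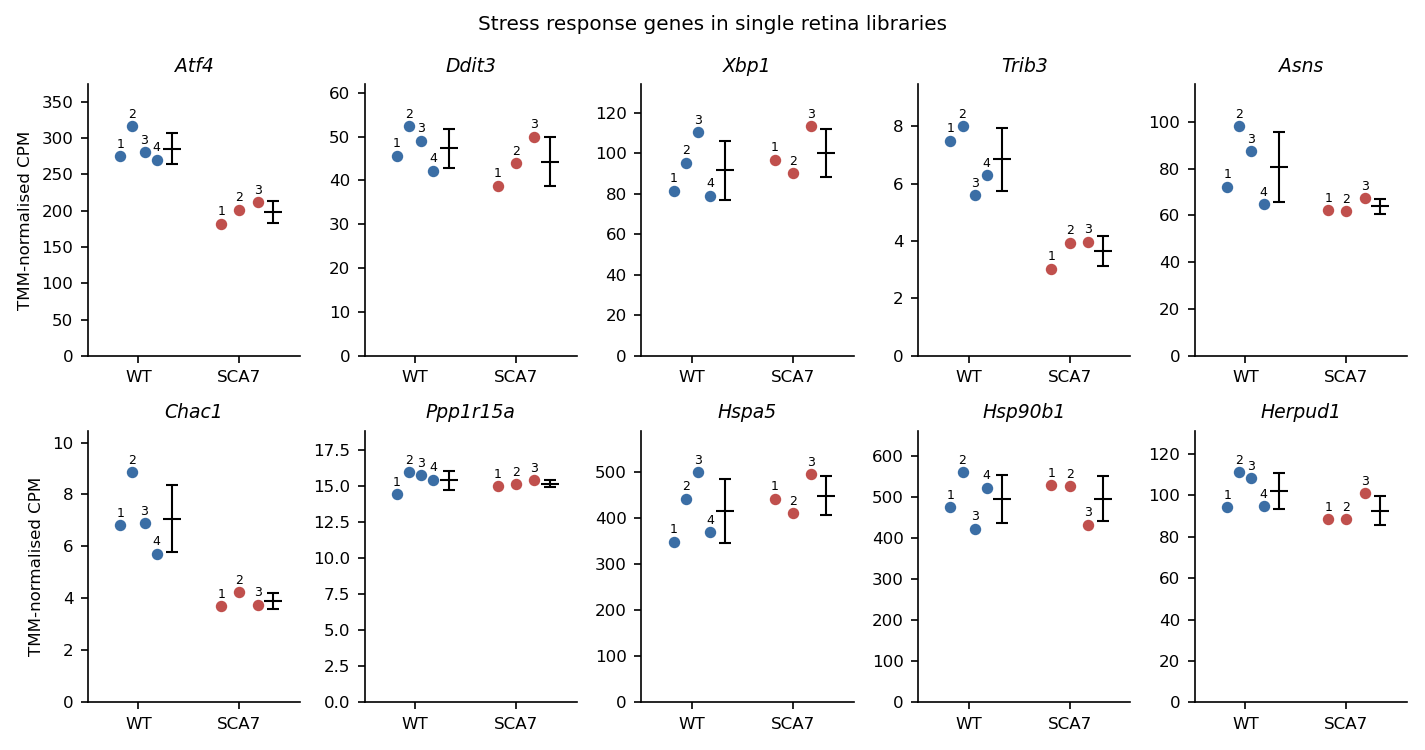
Each panel is 1 of the 10 members, each point 1 library (4 WT and 3 SCA7), the y axis CPM from 0, and the bar the mean with its SD. The WT and SCA7 points do not overlap in *Atf4*, *Trib3* and *Chac1* and overlap in the other 7 members.

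ATF4, CHOP and XBP1 are the transcription factors of the pathways. *Atf4* (ENSMUSG00000042406, chromosome 15, 80255184 to 80257541, plus strand) encodes the factor that drives amino acid synthesis and import genes under stress. It was at 275, 317, 280 and 271 CPM in the WT libraries and at 182, 201 and 211 CPM in the SCA7 libraries, so that the groups did not overlap. The mean over the 4 WT mice, 286 ± 21.1 CPM (SD), stood against 198 ± 14.8 CPM over the 3 SCA7 mice, a log2 fold change of -0.53 ± 0.08 (SE) with an adjusted p of 0.00034. Its fold of 0.694 just passed the limit of 0.7. Without WT replicate 2 the log2 fold change was -0.47 with an adjusted p of 0.0015, and without SCA7 replicate 1 it was -0.47 with an adjusted p of 0.0039. In both it missed the fold limit, as it did by the DESeq2 Wald test (-0.51, adjusted p = 7.2e-09), without the filter (-0.51) and with library totals (-0.34).

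*Ddit3* (ENSMUSG00000025408, chromosome 10, 127290774 to 127296288, plus strand) encodes CHOP, which promotes cell death when ER stress lasts. Its levels were 45.7, 52.4, 49.1 and 42.2 CPM in WT and 38.8, 43.9 and 49.98 CPM in SCA7, and the groups overlapped. The log2 fold change was -0.10 (95% interval -0.30 to 0.11) with an adjusted p of 0.47. The exons of *Ddit3* share 68 bases with *Mars* on the other strand, and 1.11% of its 50-base words occur in a *Mars* transcript. *Xbp1* (ENSMUSG00000020484, chromosome 11, 5520659 to 5525893, plus strand) was at 81.6, 95.3, 110.5 and 79.0 CPM in WT and at 96.9, 90.1 and 113.5 CPM in SCA7. The highest library of each genotype reached nearly the same level, and the log2 fold change was 0.13 (95% interval -0.14 to 0.39) with an adjusted p of 0.46.

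The targets fell into those that were downregulated and those that did not pass the test. *Trib3* (ENSMUSG00000032715, chromosome 2, 152337422 to 152344032, minus strand) was at 7.499, 8.01, 5.59 and 6.29 CPM in WT and at 3.04, 3.95 and 3.98 CPM in SCA7. No SCA7 library reached the lowest WT library, and the log2 fold change was -0.90 ± 0.14 (SE) with an adjusted p of 0.00062. These levels rest on 298 to 573 counts per WT library and 187 to 409 counts per SCA7 library. *Chac1* (ENSMUSG00000027313, chromosome 2, 119351229 to 119354381, plus strand) was at 6.82, 8.85, 6.90 and 5.72 CPM in WT and at 3.71, 4.24 and 3.76 CPM in SCA7. The SCA7 libraries were again all below the WT libraries, with a log2 fold change of -0.86 ± 0.14 (SE) and an adjusted p of 0.00068. The calls of *Trib3* and *Chac1* held under every alternative tried and without each library in turn. Among the log2 fold changes of all genes tested, that of *Trib3* stood at the 4.26th percentile, that of *Chac1* at the 4.77th and that of *Atf4* at the 11.9th.

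*Asns* (ENSMUSG00000029752, chromosome 6, 7675169 to 7693254, minus strand) encodes asparagine synthetase, and its CARE stands 23 bases before the RefSeq start, inside the span of the gene. It was at 72.3, 98.2, 87.3 and 64.9 CPM in WT and at 62.2, 61.9 and 67.4 CPM in SCA7. The lowest WT library lay within the SCA7 range, and the log2 fold change of -0.34 ± 0.13 (SE) had an adjusted p of 0.071. Over the alternatives the adjusted p ran from 5.7e-06 to 0.33. It was under 0.05 by the DESeq2 Wald test (0.037), with the replicate number as a block (5.7e-06) and without WT replicate 4 (0.0061). Each time *Asns* missed the fold limit and was not called. *Ppp1r15a* (ENSMUSG00000040435, chromosome 7, 45522916 to 45526268, minus strand) encodes GADD34, which directs a phosphatase to eIF2α and so ends the block on translation. It was at 14.4, 15.9, 15.7 and 15.4 CPM in WT and at 15.0, 15.1 and 15.4 CPM in SCA7. Its SCA7 range lay within the WT range, and the log2 fold change of -0.02 had the narrowest 95% interval of the members, from -0.16 to 0.12, with an adjusted p of 0.85.

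The ER members act in protein folding and in the removal of misfolded proteins. *Hspa5* (ENSMUSG00000026864, chromosome 2, 34771970 to 34777547, plus strand) encodes BiP, the HSP70 chaperone that holds the sensors inactive. It was at 348, 442, 498 and 369 CPM in WT and at 441, 409 and 494 CPM in SCA7. The SCA7 libraries lay within the WT range, and the log2 fold change was 0.11 (95% interval -0.15 to 0.37) with an adjusted p of 0.51. *Hsp90b1* (ENSMUSG00000020048, chromosome 10, 86690209 to 86705509, minus strand) encodes GRP94, the HSP90 chaperone of the ER. It was at 474, 559, 422 and 522 CPM in WT and at 527, 526 and 432 CPM in SCA7. The SCA7 libraries lay within the WT range, with a log2 fold change of 0.00 (95% interval -0.22 to 0.23) and an adjusted p of 0.99. Of its 50-base words 9.75% are shared with *1810014B01Rik*, *Gm25745* and *Gm15344*, so part of its reads could be counted elsewhere or not at all.

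*Herpud1* (ENSMUSG00000031770, chromosome 8, 94386438 to 94395377, plus strand) encodes a membrane protein of ER-associated degradation. It was at 94.2, 111, 108 and 94.97 CPM in WT and at 88.6, 88.5 and 101 CPM in SCA7. SCA7 replicate 3 lay between the WT libraries and the other SCA7 libraries below them, and the log2 fold change was -0.14 (95% interval -0.31 to 0.03) with an adjusted p of 0.21.

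WT replicate 2 stood apart in these genes. It was the highest of the 7 libraries in 8 of the 10 members (the exceptions were *Hspa5*, highest in WT replicate 3, and *Xbp1*, highest in SCA7 replicate 3), while it was the highest in 8.78% of all genes tested. Among 12 cytosolic tRNA synthetases known to respond to ATF4, which charge tRNAs with amino acids, it was the highest in 10, and among 8 other cytosolic synthetases in 2. Without this library, 2 members were downregulated and 0 upregulated. *Trib3* then had a log2 fold change of -0.82 (adjusted p = 0.0029), *Chac1* of -0.73 (adjusted p = 0.0016) and *Asns* of -0.23 (adjusted p = 0.13). The median of the members was then -0.07.

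**Figure D2:**
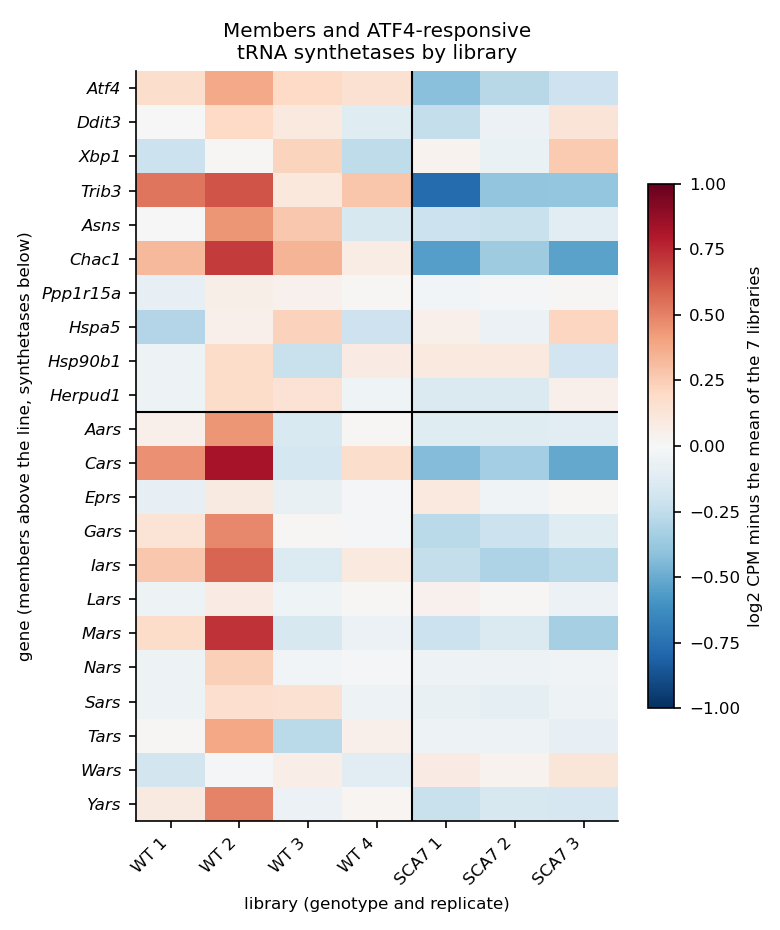
Each row is a gene (the 10 members above the line, the 12 ATF4-responsive synthetases below), each column 1 library (4 WT, 3 SCA7), and the color gives log2 CPM minus the mean of the 7 libraries, from -1 to 1. WT replicate 2 is the highest library in 8 of the 10 members and 10 of the 12 synthetases.

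Levels of different members were compared per length, as reads per kilobase (RPK: counts over the size factor of DESeq2, per kb of length). Because median transcript lengths in the annotation are short for genes with many partial transcripts, the order was set with the union of exons as the length and compared with that of the median transcript length. With the union of exons, *Hsp90b1* (8467 ± 1041 RPK, SD, n = 4) and *Atf4* (8363 ± 642 RPK) led in WT, followed by *Hspa5* (6761 ± 1122 RPK), and each overlapped with the next. *Herpud1* (3023 ± 265 RPK) stood apart from the genes on either side. *Asns*, *Xbp1* and *Ddit3* lay close together, between 1909 and 2036 RPK on average, and overlapped. *Ppp1r15a* (361 ± 16.5 RPK), *Chac1* (298 ± 55.7 RPK) and *Trib3* (222 ± 36.5 RPK) were the lowest, below *Ddit3* without overlap, and each overlapped with the next.

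In SCA7 the order by the union of exons differed at *Atf4*, which at 5858 ± 441 RPK (SD, n = 3) came after *Hspa5* at 7382 ± 743 RPK without overlap. It also differed at *Asns*, which at 1626 ± 85.0 RPK came after *Xbp1* and *Ddit3* but overlapped with *Ddit3*. With the median transcript length, *Hspa5* came first in WT at 44191 ± 7336 RPK and *Atf4* after *Hsp90b1* at 11432 ± 878 RPK, so the order among the leading genes depends on the length used.

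**Figure D3:**
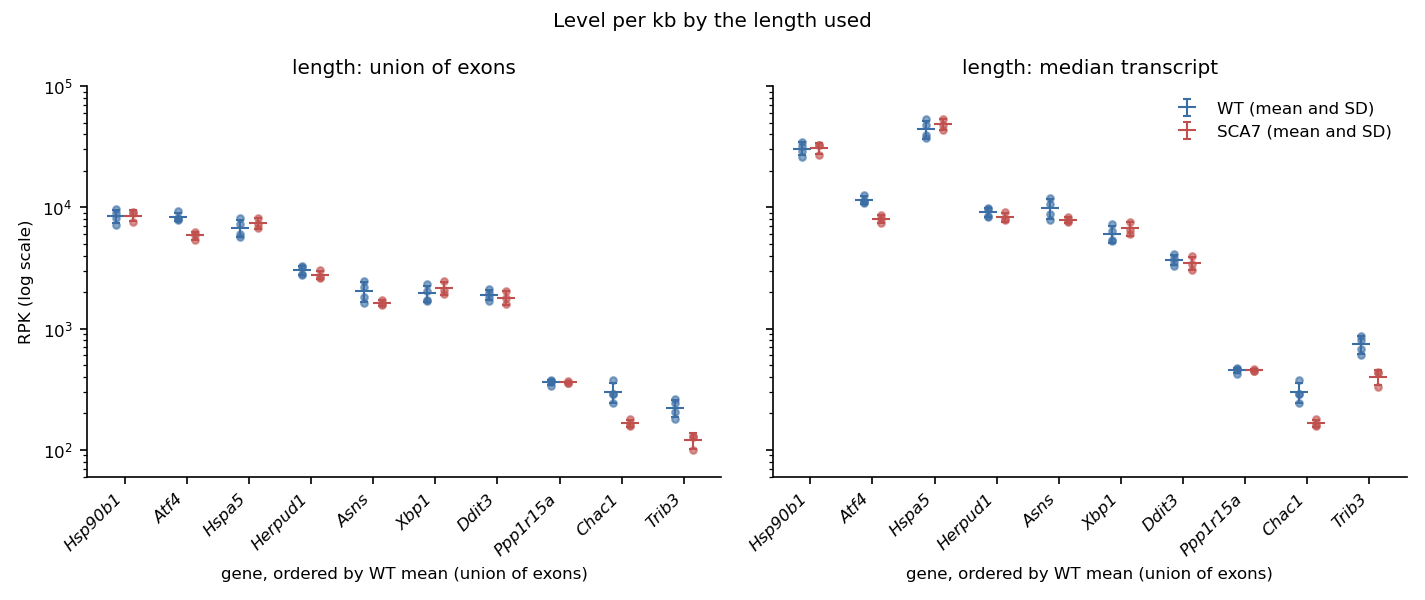
The y axis gives RPK on a log scale for the 10 members with the union of exons (left) and the median transcript length (right), each point 1 library, with the mean and SD of 4 WT and 3 SCA7 libraries. *Hsp90b1* leads in WT at 8467 RPK on the left and *Hspa5* at 44191 RPK on the right, and the 3 lowest genes are *Ppp1r15a*, *Chac1* and *Trib3* on both sides.

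Lists of other genes of these pathways held 128 genes, of which 126 were tested; *Ern2* and *Fgf21* did not pass the filter. Of these, 5 were upregulated, against 7.47% of all genes tested, and 4 downregulated, against 7.91%, and the median log2 fold change was 0.05. Downregulated genes were 2 in place of 4 without WT replicate 1, WT replicate 4 or any one of the SCA7 libraries. At any fold, 20 were higher and 11 lower at an adjusted p under 0.05, which held for 14.2% of all genes tested in each direction. At an unadjusted p under 0.05, 31 were higher and 21 lower. Of all 20128 genes tested 3930 were higher and 4062 lower by that limit, which is the background for the unadjusted counts by list. By sign alone, 9567 of all genes tested were above and 10561 below WT.

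**Figure D4:**
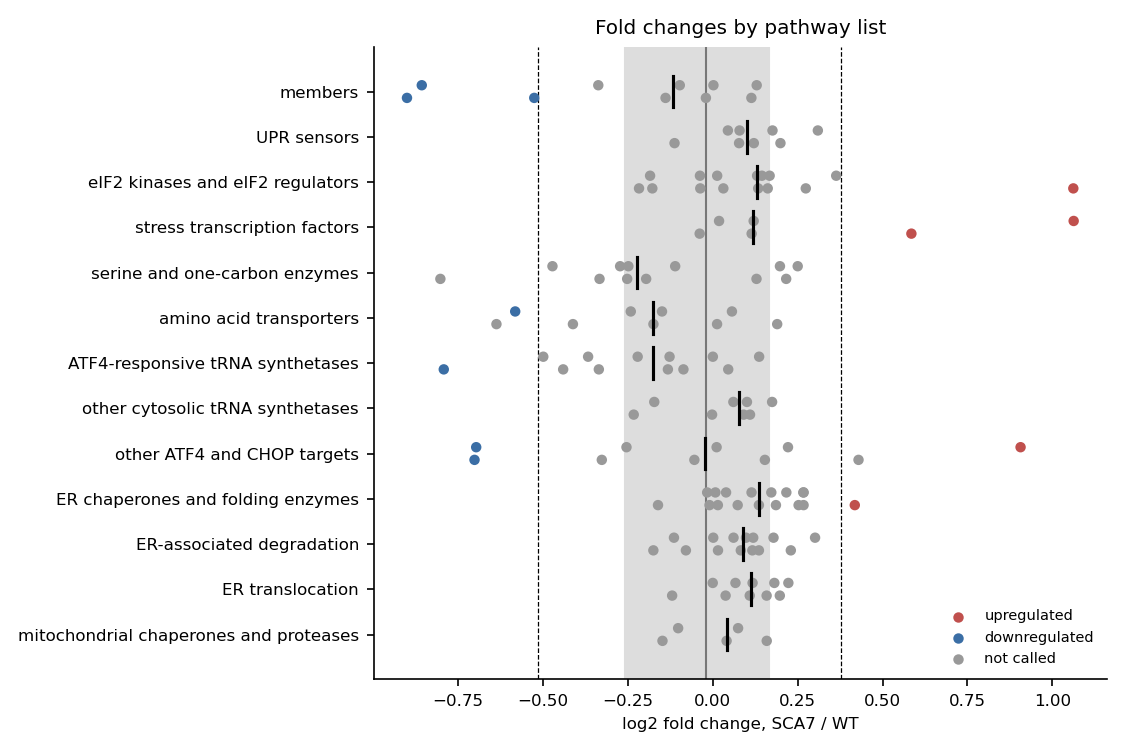
Each point is the log2 fold change (SCA7/WT) of 1 gene, grouped by list with the median as a bar, the gray band spans the quartiles of all genes tested (-0.26 to 0.17), and the dashed lines are the fold limits. The medians of the lists of amino acid genes and ATF4-responsive synthetases lie between -0.22 and -0.18 (between -0.10 and -0.05 without WT replicate 2), and that of the ER chaperones lies at 0.14 (0.16 without it).

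Among the 8 tested ER stress sensors and their relatives, 0 were called, and 3 were higher and 0 lower at an unadjusted p under 0.05; DESeq2 also called 0. *Ern1*, which encodes IRE1, had 25.2 ± 3.93 CPM in WT mice and 26.0 ± 1.00 CPM in SCA7 mice (log2 fold change 0.04, adjusted p = 0.79). *Atf6*, the sensor cut in the Golgi, was higher in every SCA7 library (124 ± 2.15 against 99.9 ± 4.79 CPM), with a log2 fold change of 0.31 and an adjusted p of 0.002, inside the fold limit.

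Of 15 genes of eIF2 kinases and eIF2 regulators, 1 was upregulated and 0 downregulated. *Eif2ak2*, which encodes PKR, the kinase activated by double-stranded RNA and induced by interferon, was at 5.09, 7.52, 6.30 and 5.2005 CPM in WT and at 13.3, 12.2 and 12.4 CPM in SCA7. The groups did not overlap, and the log2 fold change was 1.06 ± 0.12 (SE) with an adjusted p of 6.7e-05. *Eif2ak3*, which encodes PERK, had 39.8 ± 2.59 CPM in WT mice and 51.2 ± 3.78 CPM in SCA7 mice, and its fold of 1.29 (adjusted p = 0.0024) was just under the limit of 1.3, which it passed without WT replicate 4 (log2 fold change 0.40), without SCA7 replicate 2 (0.42), without the filter on low counts (0.38), with *Xist* as a covariate (0.38), with the replicate number as a block (0.40) and with library totals (0.55). *Eif2ak1*, the HRI gene, had a log2 fold change of 0.27 (adjusted p = 0.0084), and *Eif2ak4*, the GCN2 gene, of 0.13 (adjusted p = 0.10).

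Of 6 other stress transcription factors, 2 were upregulated and 0 downregulated. *Nupr1*, a small chromatin protein induced by stress, was at 9.60, 10.6, 11.2 and 9.36 CPM in WT and at 22.6, 23.8 and 17.5 CPM in SCA7, with a log2 fold change of 1.06 ± 0.11 (SE) and an adjusted p of 1.9e-05. *Atf5*, a factor that, like ATF4, is translated under stress, was at 11.3, 10.98, 11.1 and 9.21 CPM in WT and at 17.4, 17.4 and 13.2 CPM in SCA7, with a log2 fold change of 0.59 ± 0.11 (SE) and an adjusted p of 0.0018. *Atf3*, an early stress factor, had 14.9 ± 3.83 CPM in WT mice and 14.5 ± 0.963 CPM in SCA7 mice (adjusted p = 0.89). *Cebpb* was under 1 CPM in both genotypes (adjusted p = 0.74). *Nupr1* and *Atf5* thus rose in the libraries in which *Atf4*, *Trib3* and *Chac1* fell.

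Of 12 serine and one-carbon enzymes 0 were called, with a median log2 fold change of -0.22. At an unadjusted p under 0.05, 2 were higher and 4 lower, of which 1 higher and 1 lower gene also passed an adjusted p under 0.05. DESeq2 called 0 upregulated and 1 downregulated. Without WT replicate 2 the median of these enzymes was -0.05, with 6 of 12 below WT in place of 8 and 1 downregulated. Of 9 amino acid transporters 1 was downregulated and 0 upregulated, with a median of -0.18. That gene was *Slc7a3*, a carrier of arginine and lysine, with 3.93 ± 0.401 CPM in WT mice and 2.62 ± 0.183 CPM in SCA7 mice (log2 fold change -0.58, adjusted p = 0.0038). Without WT replicate 2 the median of the transporters was -0.10, and 1 was downregulated.

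Of the 12 ATF4-responsive synthetases 1 was downregulated and 0 upregulated, with a median of -0.18. At an adjusted p under 0.05 and any fold, 3 of the 12 were lower and 0 higher, against 14.2% of all genes tested in each direction. In 5 of the 12 every SCA7 library was below every WT library, against 18.3% of all genes tested. Of the 8 other synthetases edgeR and DESeq2 called 0, with a median of 0.08. Among these 8, 1 was higher and 2 lower at an unadjusted p under 0.05, and all of these also passed an adjusted p under 0.05 within the fold limits. *Cars*, which charges the cysteine tRNA, was at 69.6, 89.4, 44.7 and 57.2 CPM in WT and at 37.5, 40.0 and 35.5 CPM in SCA7. The WT libraries differed widely, and the log2 fold change was -0.79 ± 0.23 (SE) with an adjusted p of 0.046. The call of *Cars* held in 2 of 7 fits that left out a library and was lost without WT replicate 1, WT replicate 4 or any one of the SCA7 libraries. It was also lost with the replicate number as a block (adjusted p = 0.13), with *Xist* as a covariate (0.077), without the filter (0.13) and with library totals (0.084), with adjusted p-values from 0.011 to 0.14 over all alternatives. Without WT replicate 2 the median of the 12 synthetases was -0.09, and *Cars* had a log2 fold change of -0.60 (adjusted p = 0.012).

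Of 10 tested other targets of ATF4 and CHOP, 1 was upregulated and 2 downregulated. *Ddit4*, an inhibitor of mTORC1, was at 92.6, 85.7, 96.2 and 90.4 CPM in WT and at 58.2, 54.2 and 55.9 CPM in SCA7, well apart, with a log2 fold change of -0.70 ± 0.06 (SE) and an adjusted p of 5.2e-06. *Bbc3*, which encodes the pro-apoptotic protein PUMA and also responds to p53, had 1.91 ± 0.0858 CPM in WT mice and 3.58 ± 0.246 CPM in SCA7 mice (log2 fold change 0.91, adjusted p = 0.00011). The other downregulated gene was *Gdf15*, a secreted stress factor with a level under 1 CPM in both genotypes (log2 fold change -0.70, adjusted p = 0.034); it was named after its values were seen. The call of *Gdf15* was lost without any one of the 7 libraries and under the DESeq2 Wald test, while those of *Slc7a3* and *Ddit4* held in all 7 of these fits. Without WT replicate 2, 2 genes of this list were upregulated and 1 was downregulated.

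Of 17 ER chaperones and folding enzymes beside the members, 14 were above and 3 below WT, with a median of 0.14. Over all 20128 genes tested, 9567 were above and 10561 below WT. Only *Dnajc3* of these passed both limits. It encodes P58IPK, a BiP partner that also restrains PERK and PKR, and had 62.6 ± 5.18 CPM in WT mice and 83.8 ± 2.68 CPM in SCA7 mice (log2 fold change 0.42, adjusted p = 0.0008); its fold was within the limit without WT replicate 3. Another 6 of the 17 were higher at an adjusted p under 0.05 within the fold limit, as were 1349 of all 20128 genes tested. Of 14 genes of ER-associated degradation 0 were called, with a median of 0.09. At an unadjusted p under 0.05, 3 were higher and 1 lower, and 1 of the higher genes also passed an adjusted p under 0.05. Of 10 genes of ER translocation 0 were called, with a median of 0.11. At an unadjusted p under 0.05, 3 were higher and 0 lower, and all 3 also passed an adjusted p under 0.05. An adjusted p under 0.05 at any fold held for 14.2% of all genes tested in each direction. DESeq2 called 0 in both lists.

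**Figure D5:**
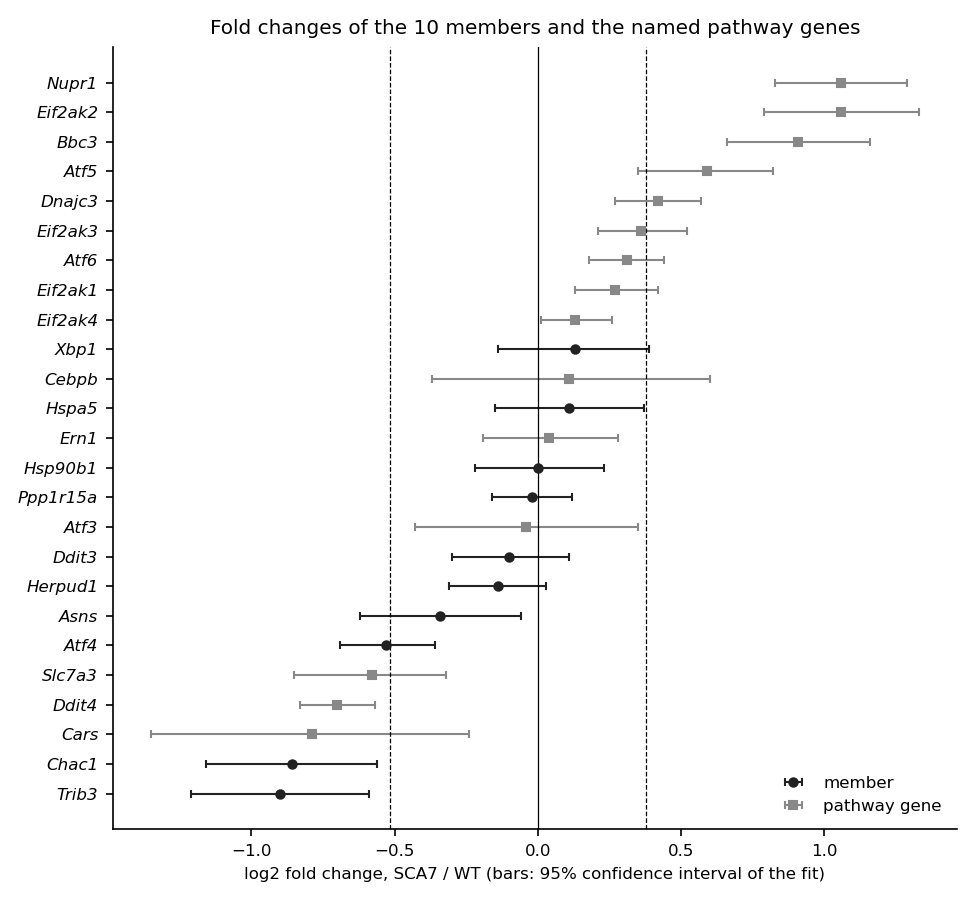
Points give the log2 fold change (SCA7/WT) with its 95% interval from edgeR for the 10 members (black) and the 15 named pathway genes (gray), and the dashed lines are the fold limits of 1.3 and 0.7. *Trib3* (-0.90) and *Chac1* (-0.86) stand at the low end and *Nupr1* and *Eif2ak2* (both 1.06) at the high end.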

How the data were processed

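The authors prepared stranded total RNA libraries from retina after depletion of ribosomal RNA, sequenced single reads of 50 bases, mapped them to mm10 with TopHat2 2.0.14 and Bowtie2 2.1.0 and used HTSeq 0.6.1 to count reads per gene of the Ensembl annotation. The deposited values are raw counts, whole numbers without normalization, and the counting mode and strand option are not given in the sources used here. Each library is 1 mouse, so p-values measure the spread between mice.

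From these counts, genes were kept by filterByExpr, scaled by TMM and compared with edgeR 4.0.16 (robust glmQLFit and the quasi-likelihood test, genotype alone, Benjamini-Hochberg over 20128 genes) in R 4.3.3. CPM used TMM-scaled library sizes, and RPK used DESeq2 1.42.0 size factors. Positions and lengths came from GENCODE M21 on the same assembly, which held 52403 of 52550 genes, and promoter windows from RefSeq GRCm38.p6.

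The members and all gene lists were chosen with earlier results of these data known. Beside the members, the genes named were up to 3 per pathway list, those with the largest change among called genes of at least 1 CPM without overlap of the genotypes, and the sensors *Ern1*, *Atf6* and *Eif2ak1* to *Eif2ak4* and the factors *Atf3*, *Atf5*, *Nupr1* and *Cebpb* in any case. The marker lists (rods, cones, bipolar and amacrine cells, Müller glia, reactive glia, microglia, endothelium, retinal pigment epithelium, lens, red blood cells and immediate early genes) were read from the same fit. Alternatives were DESeq2 size factors, the DESeq2 Wald test, no filter, at least 10 counts per library, the replicate number as a block, the *Xist* level as a covariate, a limit of 0.01 on the adjusted p, no fold limit and each library left out; library totals without TMM were added after seeing the data.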

Additional observations from a re-analysis of the deposited data

Results flagged for a closer look

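In a check of 25 groups of 4 WT libraries, 1 gene had a library far from the others. *Atf5* was at 9.21 CPM in WT replicate 4 and at 10.98 to 11.3 CPM in the other WT libraries, so that the gap made up 0.834 of the range and passed Dixon's 95% limit for 4 samples. Chance gives such a gap in about 5% of groups. All SCA7 libraries (13.2 to 17.4 CPM) were above all WT libraries.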

How the results depend on the processing

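In the 140 values of the members under the alternatives, 135 kept their side of the threshold, 5 lost it and 0 reversed as calls. All 5 were *Atf4*, which missed the fold limit under the DESeq2 Wald test, without the filter (both -0.51), with library totals (-0.34), without WT replicate 2 and without SCA7 replicate 1, at adjusted p-values of at most 0.0054. Downregulated members were then 2 in place of 3, and upregulated members 0 throughout. For the 15 named pathway genes, 190 of 210 values kept their side, 12 lost it and 8 gained it. Library totals without TMM moved the median of all genes from -0.02 to 0.17; *Ddit3* (0.09), *Herpud1* (0.05) and *Ppp1r15a* (0.17) then had a positive sign, uncalled, while relative to that median every member stayed within 0.01 of its value. With library totals 3681 genes were upregulated and 978 downregulated (1504 and 1592 with TMM), and 23 and 0 pathway genes (5 and 4 with TMM); without the fold limit these were 2853 and 2852 genes and 20 and 11 pathway genes. Downregulated pathway genes were 2 without the filter, 2 at an adjusted p under 0.01 and 2 to 5 when a library was left out; in 5 of the 7 such fits they were 2. The replicate block gave 1629 and 1706 genes, 3 downregulated members and 2 downregulated pathway genes. Deviations of log2 CPM from the genotype mean correlated at 0.00527, 0.204 and 0.0893 between same-numbered libraries. Not every library correlated best with its own number by these deviations. The numbers were therefore not taken to pair the mice, which does not show that the mice were unpaired. The call of *Gdf15* rests on 14 to 31 counts per library.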

Other observations

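Across the 13089 tested genes with a promoter window, the 380 with a CARE had a median log2 fold change of -0.01, beside 0.02 for those without, and the 23 with an ERSE had a median of 0.00. Among the 94 pathway genes with a window, the 15 with a CARE had a median of -0.13 (1 upregulated, 0 downregulated), beside 0.07 for the others, and the 7 with an ERSE (*Calr*, *Canx*, *Creld2*, *Dnajc3*, *Pdia6*, *Derl3* and *Syvn1*) a median of 0.14, beside 0.04. A CARE was in 5 of 7 ATF4-responsive synthetases with a window (*Aars*, *Gars*, *Iars*, *Tars* and *Yars*) and in 0 of 5 other synthetases. These are descriptions of lists chosen with results known.

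Of 5 mitochondrial chaperones and proteases, which serve the related response in mitochondria, edgeR and DESeq2 called 0, with a median of 0.04. At an unadjusted p under 0.05, 1 was higher and 0 lower, beside 3930 higher and 4062 lower of all 20128 genes tested. Of 6 immediate early genes 3 were upregulated and 1 downregulated. Of 6 endothelial markers 2 were upregulated (201–241 against 265–323 CPM summed, of which *Kdr* made up 91.3–132 and 148–201 CPM). Within the fold limits *Tek* was higher (log2 fold change 0.25, adjusted p = 0.034 by edgeR) and *Cldn5* lower (-0.48, adjusted p = 0.011 by edgeR). Of 5 bipolar markers 1 (*Cabp5*) was downregulated and *Grm6* (log2 fold change -0.43) and *Trpm1* (-0.40) were lower at an adjusted p under 0.05 within the fold limit, and of 5 red blood cell markers 1 was downregulated (54.5–76.7 against 30.5–61.7 CPM). Among 5 amacrine markers edgeR and DESeq2 called 0, with 0 higher and 4 lower at an unadjusted p under 0.05. Of these 4, 1 (*Gad1*) was also lower at an adjusted p under 0.05. The 3 lens markers varied between libraries of the same genotype (41.4–535 CPM in WT, 29.1–853 CPM in SCA7), and 0 were called by edgeR or DESeq2 or passed an unadjusted p under 0.05.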
